A study of Rattus norvegicus with 18 samples.

Results

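Of 32545 genes listed for rat epiblast and primordial germ cells, 10 genes of the piRNA pathway were followed across 18 RNA-seq libraries: Piwil2, Piwil4, Mov10l1, Tdrd9, Tdrd1, Tdrd5, Stk31, Asz1, Mael and Fkbp6. They were picked by symbol, without a threshold on their values but with earlier results of these data known, and all 10 were in the table. Counts of these and other pathway genes beside shares of all tested genes are therefore a description. Every embryo was of the Crlj:WI strain (Wistar) with the genotype Prdm14-Venus, a fluorescent reporter of the germ line regulator Prdm14, so no group lacked the reporter. The 6 epiblast libraries came from embryonic day (E) 7.25 and E7.75, with 2 male libraries and 1 female library on each day. Primordial germ cells (PGC), from which eggs and sperm descend, made up the other 12 libraries. There were 2 libraries for each of 4 ages a day apart (E9.5 to E12.5), for which the labels give no sex, and 4 at E15.5, of which 2 were male and 2 female. No label said whether replicates came from separate embryos or litters, so the spread between them may be technical. Values were RPKM, reads divided by gene length and by the mapped total of the library, and levels of different genes are therefore compared per length.

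PIWI-interacting RNAs (piRNAs) are small RNAs that guide PIWI proteins, a germ line branch of the Argonaute family, to transposon transcripts. In the fetal mouse testis, PIWIL2 cuts such transcripts in the cytoplasm and feeds PIWIL4, which enters the nucleus and directs DNA methylation to transposons. The other genes encode the machinery around these proteins: MOV10L1 is an RNA helicase that handles piRNA precursors, FKBP6 is a co-chaperone needed for piRNA loading, and ASZ1 is a scaffold on mitochondria. TDRD1, TDRD5, TDRD9 and STK31 carry Tudor domains, modules that bind methylated arginines of partner proteins, and MAEL is a component of the germ granules in which the pathway works. Male mice that lack core members of the pathway are sterile.

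RefSeq promoter sequences (build GRCr8, 250 bases before to 50 after the annotated start) were matched by symbol for 8 of the 10 genes, not for Piwil2 and Tdrd9. The palindromic E-box CACGTG, a hexamer recognised by many basic helix-loop-helix proteins, was present in 5 of these 8 promoters (62.5%), against 2148 of 33469 rat promoters of the same length (6.42%). The motif was chosen after the sequences had been seen, so these shares are a description and not a test. It contains a CG, and the 8 promoters were richer in CpG than all promoters, as given below. The stretches around it are shown with the E-box in capitals.
Fkbp6, chr12:26956028-26956127, plus strand: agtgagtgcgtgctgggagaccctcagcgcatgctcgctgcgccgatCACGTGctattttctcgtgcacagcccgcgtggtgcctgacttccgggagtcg
Stk31, chr4:79701570-79701669, plus strand: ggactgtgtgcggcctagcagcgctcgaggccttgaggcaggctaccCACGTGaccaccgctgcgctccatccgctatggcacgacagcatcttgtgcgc
Mov10l1, chr7:121949621-121949720, plus strand: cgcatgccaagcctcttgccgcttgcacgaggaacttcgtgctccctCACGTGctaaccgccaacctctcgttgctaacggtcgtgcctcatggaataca
Mael, chr13:81029792-81029873, minus strand: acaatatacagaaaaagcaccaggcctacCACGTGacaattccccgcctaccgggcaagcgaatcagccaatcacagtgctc
Tdrd1, chr1:265880891-265880990, plus strand: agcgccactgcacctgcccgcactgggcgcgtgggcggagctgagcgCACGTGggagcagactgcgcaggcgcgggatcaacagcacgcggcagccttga

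The E-box began 56 bases before the annotated start in Fkbp6, 87 in Tdrd1, 124 in Stk31, 154 in Mov10l1 and 221 in Mael. Asz1, Tdrd5 and Piwil4 lacked it in this window, and their last 100 bases before the start are given for contrast. The capitals in Asz1 mark 3 matches to the NRF1 core motif GCGCANGCG on either strand.
Asz1, chr4:47421977-47422076, minus strand: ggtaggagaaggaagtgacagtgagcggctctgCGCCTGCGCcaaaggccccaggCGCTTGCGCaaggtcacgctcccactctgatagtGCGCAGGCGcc
Tdrd5, chr13:70991581-70991680, minus strand: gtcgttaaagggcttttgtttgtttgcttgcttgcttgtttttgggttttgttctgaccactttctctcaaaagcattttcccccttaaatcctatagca
Piwil4, chr8:19861221-19861320, minus strand: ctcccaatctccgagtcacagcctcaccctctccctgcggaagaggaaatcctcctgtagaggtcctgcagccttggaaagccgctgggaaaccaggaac

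The NRF1 motif was found in 4 of the 8 promoters (Mov10l1, Tdrd1, Stk31 and Asz1; 50%) and in 5.80% of all, and the E2F motif TTCCCGC, searched on both strands, in 0 of 8 and in 4.21% of all. No E-box match overlapped an NRF1 match in these genes. The 8 promoters were rich in CpG dinucleotides, with a median of 19 per 300 bases (7 in Tdrd5, 15 in Piwil4 and Asz1, 26 in Tdrd1) against 7 over all promoters. All 3 motifs contain a CG. Of 20 other piRNA factors and effectors with a promoter sequence, 7 held the E-box in at least 1 promoter. Among them were Piwil1, which stayed at or under 0.641 RPKM in every library, and Dnmt3l, which was lower in PGC than in epiblast. Counted by promoter, as in the shares above, it was 7 of 29 (24.1%). The motifs were chosen after the sequences had been seen, and a match is a string of letters, not a binding site.

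Depth differed with age. The table holds no read counts, but the spacing of low values gave a depth relative to the E7.75 female library of 20.7% to 22.9% in the E10.5 and E11.5 libraries (4 in all) and of 82.6% to 120.9% in the other 14. Between 14.4% and 21.6% of tested genes were listed at 0 in those 4 libraries, and 8.29% to 15.4% in the others. The summed level of 6 PGC markers (Prdm1, Prdm14, Tfap2c, Nanos3, Kit and Dppa3) lay between 0.932 and 10.7 RPKM in epiblast and between 351 and 698 RPKM in PGC. The E9.5 PGC libraries also carried 159 and 168 RPKM of 5 mesenchyme markers, 92.9 and 98.8 RPKM of 4 gut epithelium markers and 26.5 and 93.7 RPKM of 4 endothelial markers, where the other libraries had at most 22.4, 20.4 and 4.90 RPKM. Of 7 gonadal somatic markers the summed level was 16.1 and 37.2 RPKM in the E9.5 PGC libraries. It was at most 5.85 RPKM in epiblast and 7.98 RPKM from E10.5 on, with Foxl2 at 0 in every library.

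Up to E9.5 most values of these 10 genes were near 0. In the 6 epiblast and 2 E9.5 PGC libraries the 10 genes gave 80 values with a median of 0.511 RPKM, of which 16 were listed at 0 and only 2 reached 5 RPKM. Both of these were Fkbp6 at E7.25, at 8.11 and 6.59 RPKM in the male libraries against 1.28 RPKM in the female one. Mael was next, at 2.82, 3.25 and 4.54 RPKM at E7.25 and at 0.0666, 0.535 and 1.85 RPKM at E7.75, and the libraries of the 2 days did not overlap. An exact 0 in this table can be a failed estimate: Hsp90aa1, a chaperone gene that most cells use, was listed at 0.0300 RPKM or less in all 18 libraries.

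Across the 2 days of epiblast none of the 10 genes passed limma's test, where 0.101% of all 14865 tested genes were higher and 0.168% lower at E7.75. Fkbp6, Mael and Stk31 had an unadjusted limma p under 0.05, all with lower values at E7.75. No share of all tested genes at that unadjusted limit is given here, so their number cannot be judged. Mael differed by -1.42 ± 0.32 (SE) on the log2(RPKM + 1) scale, with a limma adjusted p of 0.114 that ranged from 0.0261 to 0.406 over the alternatives and passed without the E7.75 female library (-1.81, limma adjusted p = 0.0261). From E7.75 epiblast to E9.5 PGC again none passed, while 16.3% of all tested genes were called higher and 11.3% lower. At an unadjusted limma p under 0.05, for which again no such share is given, 0 of the 10 genes stood. The median log2 difference of the 10 genes was -0.17, against 0.04 over all tested genes. Asz1 passed as lower only without replicate 1 of E9.5 (-1.32, limma adjusted p = 0.0427, against -0.62 and 0.306 with all libraries). In bulk libraries such as these, fewer cells of a type and less RNA per cell cannot be told apart.

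Onset was defined as the earliest age at which every library, at E15.5 every library of 1 sex, reached 5 RPKM. By this rule 2 genes came on at E10.5 (Piwil2 and Asz1), 5 at E11.5 (Fkbp6, Stk31, Mov10l1, Mael and Tdrd1) and 1 at E15.5 (Tdrd5), while Piwil4 and Tdrd9 did not reach the level. Just inside the limit stood Tdrd1 at E11.5, with 6.82 and 6.37 RPKM, and just outside it Fkbp6 at E10.5, with 16.7 and 4.42 RPKM. In epiblast, unlike E15.5, the libraries of both sexes had to reach the limit. At E7.25 Fkbp6 did so in the male libraries (8.11 and 6.59 RPKM) but not in the female one (1.28 RPKM). With 1 sex taken alone in epiblast too, its onset would be E7.25. With a limit of 10 RPKM the onset of Piwil2 and Asz1 moved to E11.5 and that of Mov10l1, Mael and Tdrd1 to E12.5. With a limit of 1 RPKM the order changed: Fkbp6 and Mael already met it at E7.25, Piwil2, Asz1, Stk31 and Mov10l1 at E10.5, Tdrd1 at E11.5, Tdrd5 and Piwil4 at E12.5 and Tdrd9 at E15.5. The plot of values by library shows the order at 5 RPKM, with the late genes in the lower row.

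**Figure D1:**
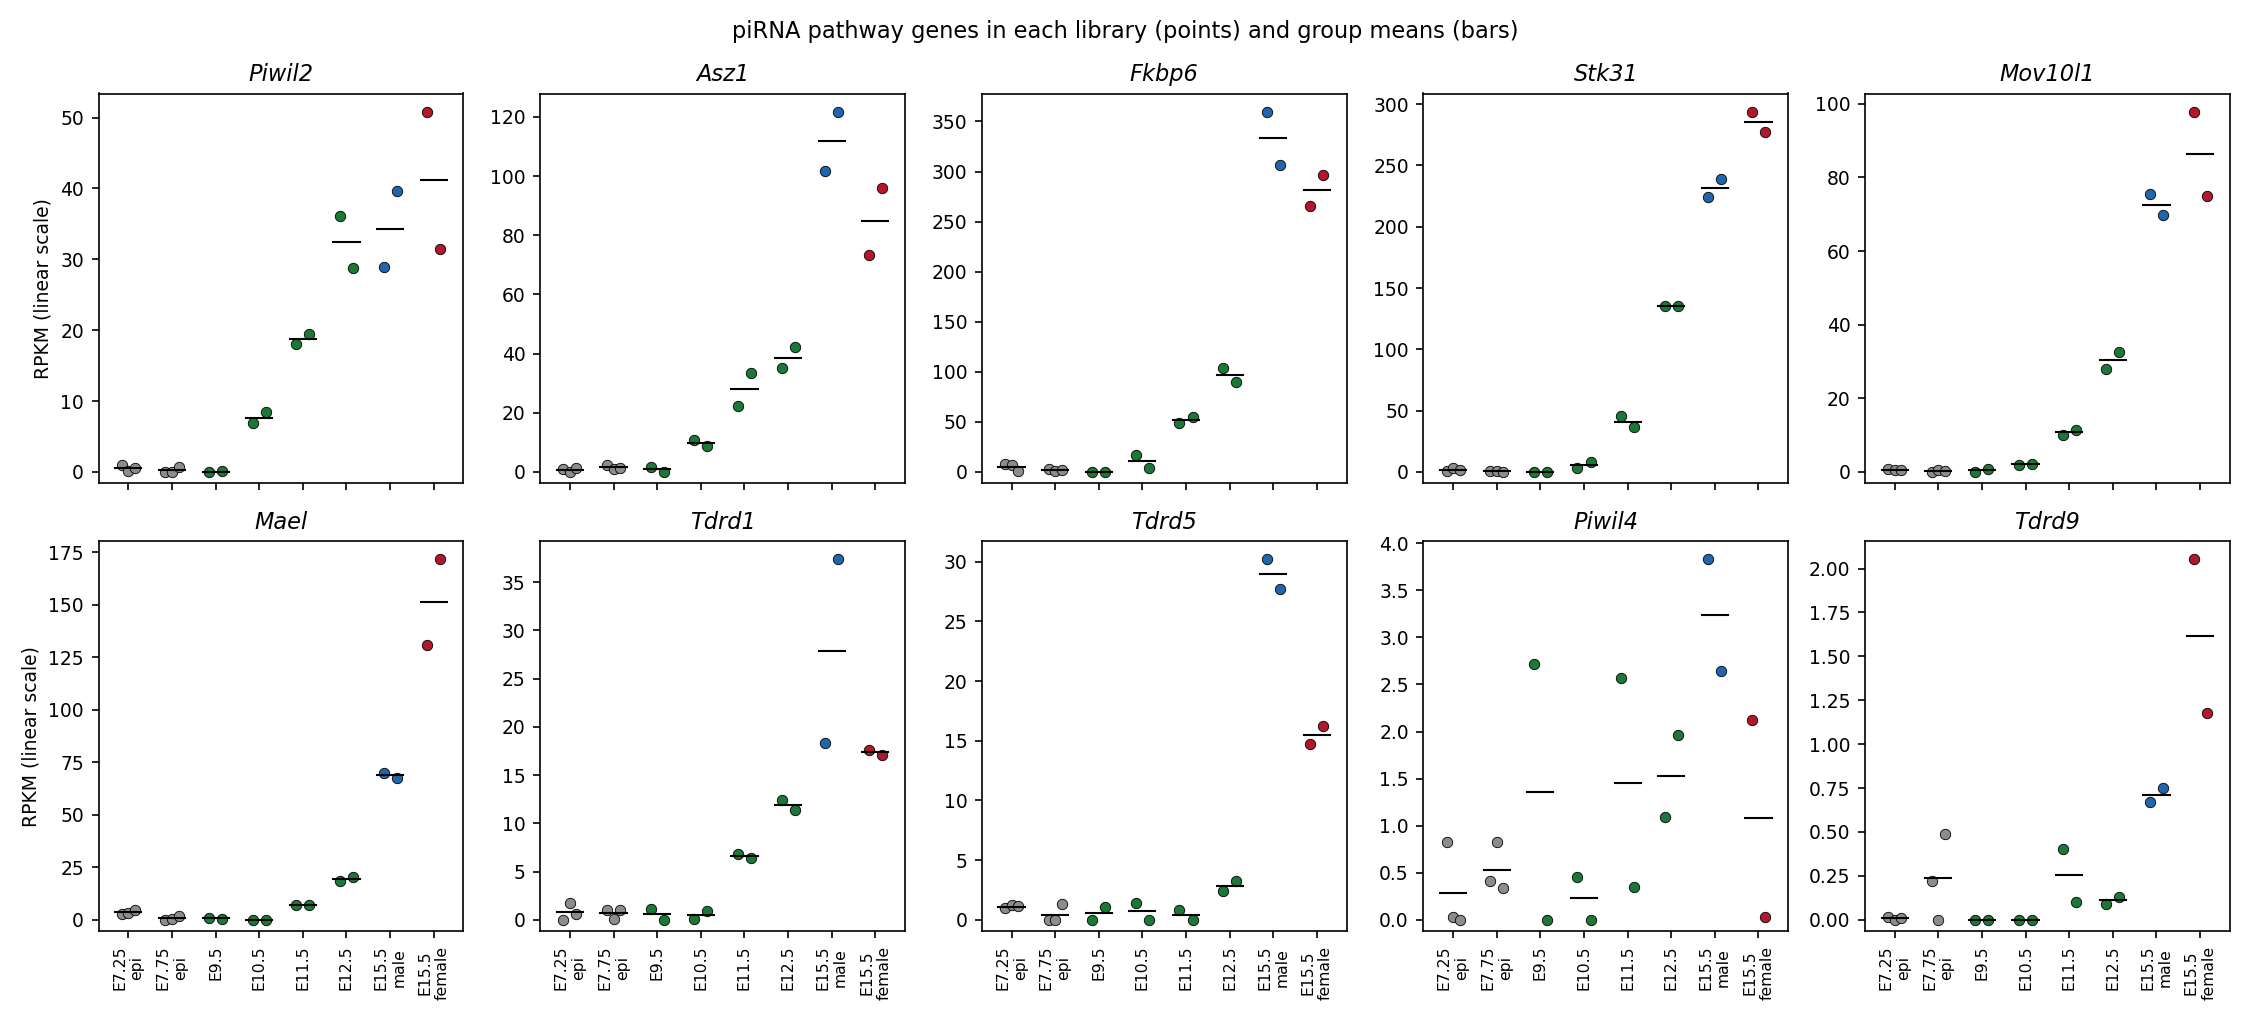
RPKM (linear scale, a different range in each panel) of the 10 piRNA pathway genes in each library (points; grey epiblast, green PGC of unlabelled sex, blue male and red female E15.5 PGC), with group means as bars and epiblast marked epi. The 8 genes from Piwil2 to Tdrd5 had their highest group mean at E15.5. Through E9.5 their values were under 5 RPKM except 2 of Fkbp6 at E7.25. Piwil4 and Tdrd9 stayed at or under 3.83 and 2.05 RPKM.

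The PIWI protein gene Piwil2 was 1 of the 2 that met the 5 RPKM limit at E10.5. It was at 0 and 0.0766 RPKM in the E9.5 libraries, at 6.85 and 8.46 RPKM at E10.5, at 18.1 and 19.5 RPKM at E11.5 and at 36.2 and 28.7 RPKM at E12.5. No library of one of these ages overlapped with those of the next. At E15.5 it stood at 28.9 and 39.7 RPKM in males and 50.9 and 31.5 RPKM in females, and both sexes overlapped with E12.5. Its mean at E12.5 was thus already 78.8% of its highest group mean, while the other 7 genes that reached 5 RPKM stood at 9.81% to 47.4%.

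Asz1, the mitochondrial scaffold, was the other. Its libraries read 1.66 and 0 RPKM at E9.5, 10.8 and 8.90 RPKM at E10.5, 22.3 and 33.6 RPKM at E11.5, and 35.0 and 42.1 RPKM at E12.5. At E15.5 it was at 102 and 122 RPKM in males and 73.5 and 96.1 RPKM in females, all above E12.5. Its mean at E12.5 was 34.5% of its highest.

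Fkbp6 and Stk31 reached the highest levels of the 10 genes. The co-chaperone gene Fkbp6 was at 0.239 and 0 RPKM at E9.5 and at an uneven 16.7 and 4.42 RPKM at E10.5, and then at 49.1 and 54.7 RPKM at E11.5 and 104 and 90.2 RPKM at E12.5. At E15.5 it led all 10 genes in males with 360 and 306 RPKM, and it had 265 and 297 RPKM in females. Stk31, the Tudor and kinase-like gene, read 0.152 and 0.0272 RPKM at E9.5, 3.53 and 7.77 RPKM at E10.5, 45.4 and 36.5 RPKM at E11.5, and 135 and 136 RPKM at E12.5. It led in E15.5 females, at 294 and 277 RPKM, against 224 and 239 RPKM in males. Neighbouring ages did not overlap for either gene from E9.5 to E12.5.

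The helicase gene Mov10l1 also had its onset at E11.5. It was at 0.0547 and 0.938 RPKM at E9.5, 1.94 and 2.14 RPKM at E10.5, 9.96 and 11.5 RPKM at E11.5 and 28.0 and 32.6 RPKM at E12.5. At E15.5 it had 75.4 and 69.7 RPKM in males and 97.9 and 75.0 RPKM in females, with overlap between the sexes and none with E12.5.

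Among the germ granule genes, Mael and Tdrd1 came on at E11.5. Mael was listed at 0 in both E10.5 libraries, at 7.04 and 6.84 RPKM at E11.5 and at 18.7 and 20.4 RPKM at E12.5. Most of its level came later, with 69.7 and 67.7 RPKM in E15.5 males and 131 and 172 RPKM in E15.5 females, so that E12.5 held 12.9% of its highest group mean. The Tudor gene Tdrd1, a partner of PIWIL2, was at 0.0941 and 0.898 RPKM at E10.5, 6.82 and 6.37 RPKM at E11.5 and 12.4 and 11.3 RPKM at E12.5. Its E15.5 male libraries disagreed, at 18.3 and 37.4 RPKM, and both lay above the female ones at 17.6 and 17.1 RPKM.

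Tdrd5, which helps assemble germ granules, met the 5 RPKM limit at E15.5. From E9.5 to E11.5 no library exceeded 1.45 RPKM, and at E12.5 it stood at 2.39 and 3.29 RPKM. At E15.5 it was at 30.2 and 27.7 RPKM in males and 14.7 and 16.2 RPKM in females. Its mean at E12.5 was 9.81% of the highest, the lowest share among the 8 genes that reached 5 RPKM.

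Piwil4 and Tdrd9 stayed low. Piwil4, the gene of the PIWI protein that enters the nucleus, was scattered at every age, with 2.72 and 0 RPKM at E9.5, 0.457 and 0 RPKM at E10.5, 2.57 and 0.350 RPKM at E11.5 and 1.09 and 1.96 RPKM at E12.5. Its E15.5 libraries read 3.83 and 2.65 RPKM in males and 2.12 and 0.0350 RPKM in females. Tdrd9, a helicase with a Tudor domain that partners PIWIL4, was listed at 0 in all 4 libraries of E9.5 and E10.5 and at 0.404, 0.104, 0.0919 and 0.130 RPKM in those of E11.5 and E12.5. At E15.5 it was at 0.668 and 0.753 RPKM in males and 2.05 and 1.18 RPKM in females, the only libraries in which it reached 1 RPKM. Neither gene passed limma's test in the comparisons of ages up to E12.5.

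**Figure D2:**
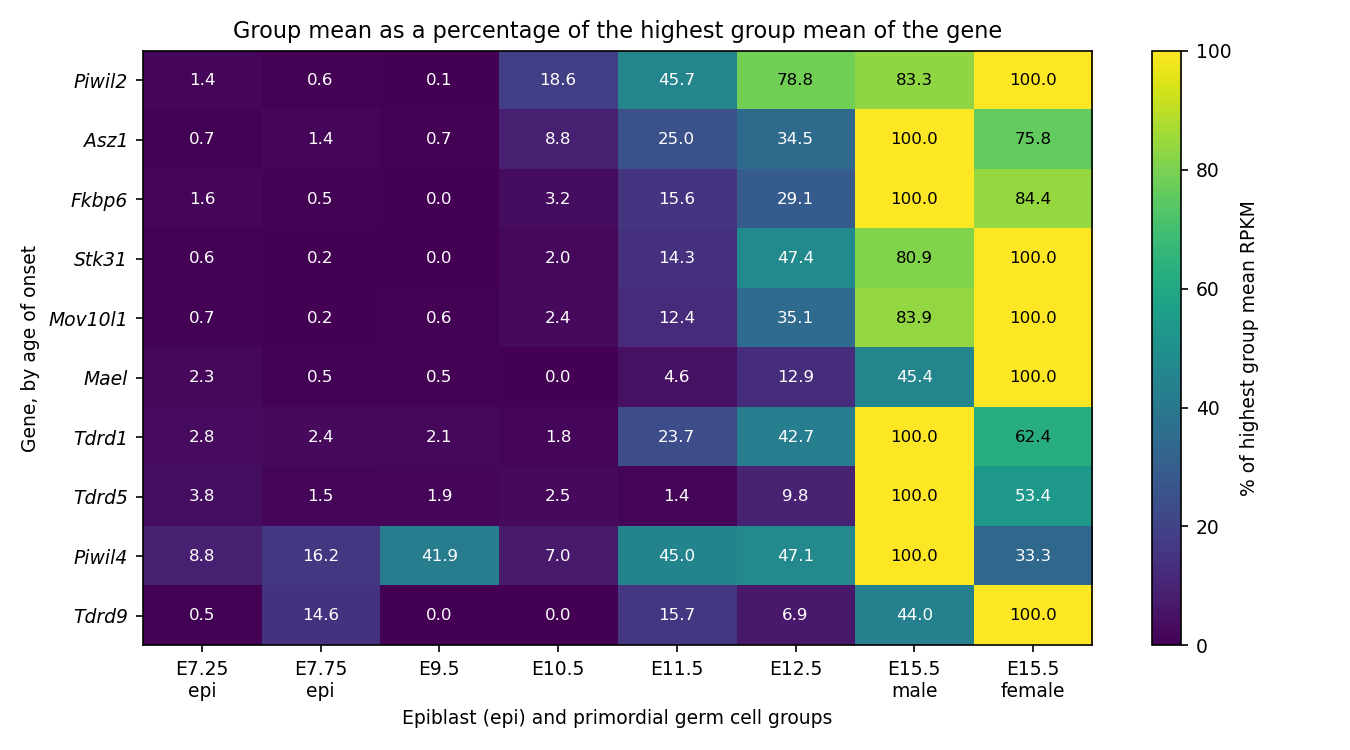
Mean RPKM of each of the 8 groups (columns; epi, epiblast) as a percentage of the gene's highest group mean (colour and printed value), with the genes in rows by age of onset. At E12.5 Piwil2 stood at 78.8% of its highest mean and Tdrd5 at 9.81%, and the highest mean fell in E15.5 males for 5 genes and in E15.5 females for 5.

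Between E9.5 and E10.5, 5 of the 10 genes rose (Fkbp6, Piwil2, Asz1, Stk31 and Mov10l1) and 0 fell, where 11.5% of all tested genes were called higher and 18.4% lower. On the log2(RPKM + 1) scale the rise was 3.14 ± 0.59 (SE) for Fkbp6 (limma adjusted p = 0.00130) and 3.05 ± 0.38 for Piwil2 (limma adjusted p = 5.76e-05). It was 2.73 ± 0.46 for Asz1 (limma adjusted p = 0.000550), 2.53 ± 0.42 for Stk31 (0.000523) and 1.09 ± 0.32 for Mov10l1 (0.0211). Mael differed by -0.74 (limma adjusted p = 0.182), and Tdrd1, Tdrd5, Piwil4 and Tdrd9 by -0.68 to 0.11. The median over the 10 genes was 0.60, against -0.16 over all tested genes. The markers of mesenchyme, gut and endothelium given above were high in the E9.5 libraries and the E10.5 libraries were the shallowest with those of E11.5, and the part of either in this comparison was not tested. Mov10l1 no longer passed without replicate 1 of E9.5 (0.65, limma adjusted p = 0.167), replicate 1 of E10.5 (1.14, 0.0543) or replicate 2 of E10.5 (1.04, 0.0687).

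At the next step, to E11.5, 5 genes rose and 0 fell, where 3.59% of all tested genes were called higher and 3.61% lower. Mael rose by 2.99 ± 0.39 (limma adjusted p = 0.000934), Stk31 by 2.73 ± 0.42 (0.00254), Fkbp6 by 2.43 ± 0.59 (0.0257), Tdrd1 by 2.40 ± 0.53 (0.0167) and Mov10l1 by 1.95 ± 0.32 (0.00402). The 2 genes of E10.5 onset did not pass, with 1.20 ± 0.38 for Piwil2 (limma adjusted p = 0.0728) and 1.39 ± 0.46 for Asz1 (0.0823), although neither overlapped between the ages. Both passed with a pseudocount of 5 (0.91, limma adjusted p = 0.0226, and 1.13, 0.00980), which made 7 genes higher at this step. No share of all tested genes with that pseudocount is given here, so this number cannot be judged. The median over the 10 genes was 1.67, against 0.03 over all tested genes.

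Several of these calls were lost with 1 library left out. Fkbp6 no longer passed without replicate 2 of E10.5 (1.58, limma adjusted p = 0.137), replicate 1 of E11.5 (2.51, 0.0965) or replicate 2 of E11.5 (2.36, 0.123). Tdrd1 no longer passed without replicate 1 of E10.5 (2.0, limma adjusted p = 0.102), replicate 1 of E11.5 (2.35, 0.0825) or replicate 2 of E11.5 (2.44, 0.0775). Asz1 passed without replicate 1 or 2 of E9.5 (limma adjusted p = 0.0382 and 0.0374), where its own value stayed at 1.39. Both ages had the low depth, and its part in these values was not tested.

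From E11.5 to E12.5, 2 genes rose (Stk31 and Mov10l1) and 0 fell, where 4.12% of all tested genes were called higher and 3.09% lower. Stk31 rose by 1.71 ± 0.42 (limma adjusted p = 0.0258) or 3.31-fold, and Mov10l1 by 1.42 ± 0.32 (0.0181) or 2.83-fold. Mael (1.37 ± 0.39, limma adjusted p = 0.0511) and Tdrd5 (1.49 ± 0.52, 0.105) did not pass, and the median of the 10 genes was 0.82 against 0.08 over all. Without any 1 of the 4 libraries compared both calls were lost, with adjusted p-values by limma of 0.0915, 0.137, 0.127 and 0.136 for Stk31 and 0.118, 0.0642, 0.0713 and 0.131 for Mov10l1 (leaving out E11.5 replicates 1 and 2 and E12.5 replicates 1 and 2 in turn). Mael passed without replicate 1 of E9.5 (0.0430), replicate 2 of E9.5 (0.0424), the E7.75 female library (0.0216) or the E7.75 male replicate 1 (0.0323), at the same 1.37. Between E11.5 and E12.5 the depth rose from the low to the ordinary range, and its part in this step was not tested.

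Over the whole span from E9.5 to E12.5, which shares its libraries with these steps, 7 genes rose and 0 fell, where 11.3% of all tested genes were called higher and 11.9% lower. Stk31 rose by 6.97 ± 0.42 (limma adjusted p = 1.64e-07), Fkbp6 by 6.46 ± 0.59 (4.49e-06), Piwil2 by 5.0 ± 0.38 (8.80e-07) and Asz1 by 4.59 ± 0.46 (8.37e-06). Mov10l1 rose by 4.45 ± 0.32 (limma adjusted p = 6.50e-07), Mael by 3.62 ± 0.39 (1.95e-05) and Tdrd1 by 3.12 ± 0.53 (0.000721). These 7 genes passed without any 1 of the 18 libraries, and also without all 4 libraries of low depth. In a fit of only the groups compared 5 passed, without Asz1 (limma adjusted p = 0.0507) and Tdrd1 (0.0653). Tdrd5 did not pass (1.40 ± 0.52, limma adjusted p = 0.0678), nor did Piwil4 (0.37) or Tdrd9 (0.15). Tdrd5 passed without the E7.75 female library (limma adjusted p = 0.0473), without E9.5 replicate 2 (1.93, 0.0370) without E10.5 replicate 1 (0.0436) or 2 (0.0438), without all 4 libraries of low depth (1.40, 0.0410) and with a pseudocount of 5 (0.0493). The median of the 10 genes was 4.03, against 0.00 over all tested genes.

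**Figure D3:**
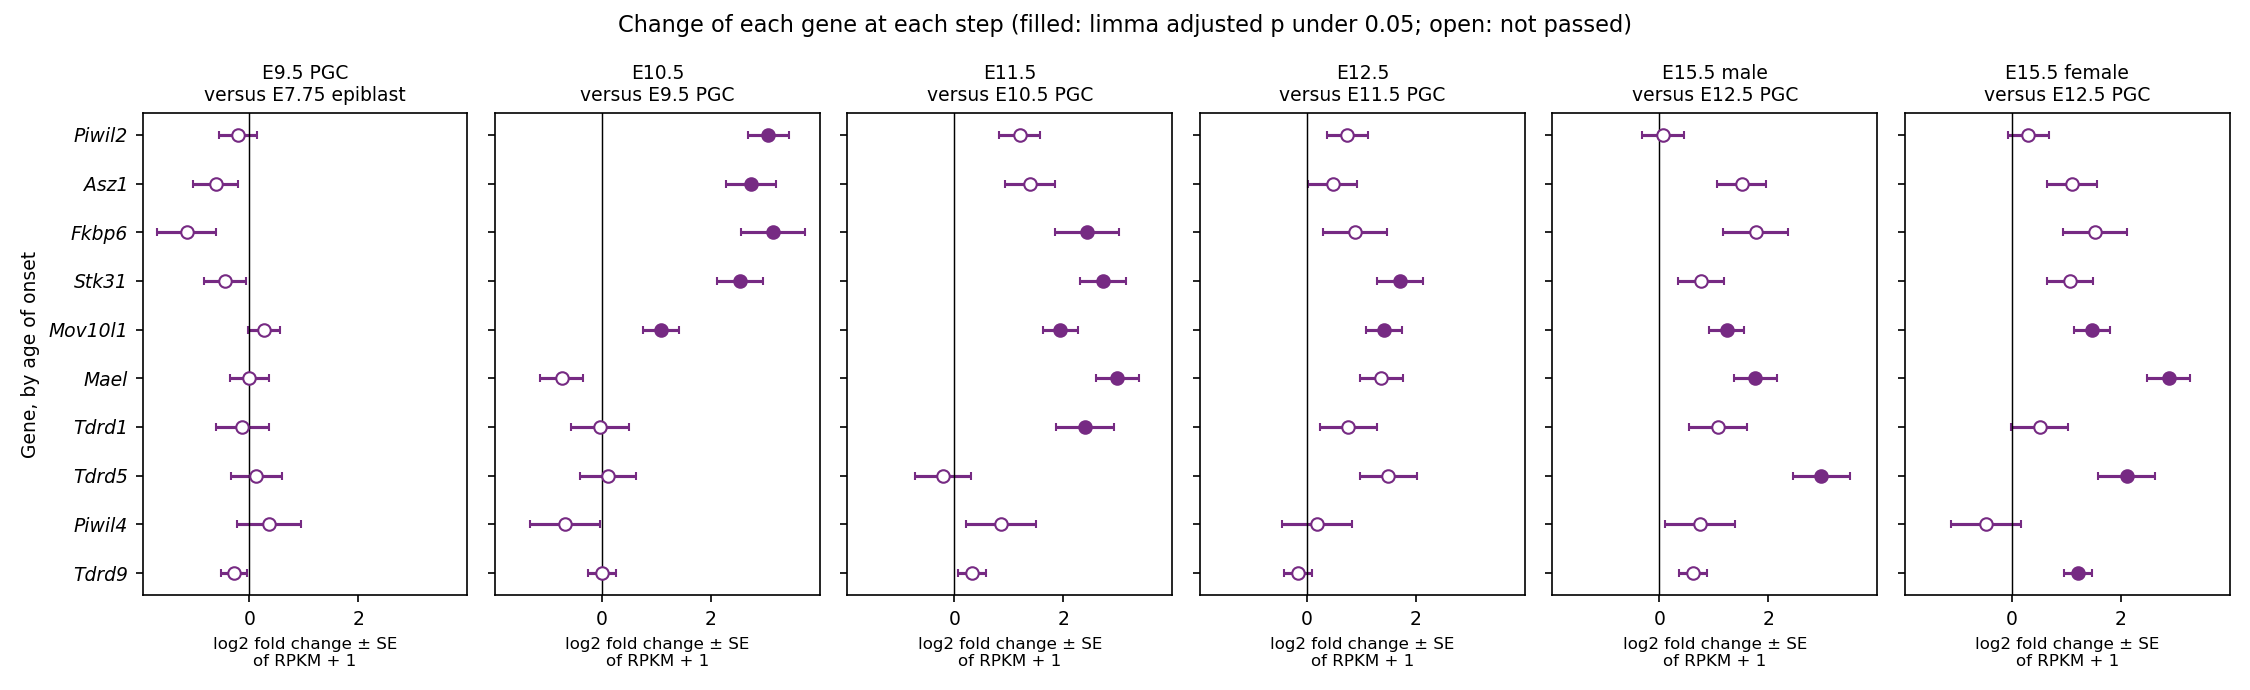
Change of each gene at 6 steps (panels), as the limma log2 fold change of RPKM + 1 with its SE as bars; filled points had an adjusted p under 0.05 and open points did not. The filled points were 0 at E9.5, then 5, 5 and 2 up to E12.5, and 3 in males and 4 in females at E15.5, where 1 of the 4 was Tdrd9, which entered the test only through its female libraries.

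After E12.5, Tdrd5, Mael and Mov10l1 rose in either sex. In males 3 of the 10 were higher at E15.5 (Tdrd5, Mael and Mov10l1) and 0 lower, where 3.58% of all tested genes were called higher and 5.15% lower. Tdrd5 rose by 2.97 ± 0.52 (limma adjusted p = 0.00275) or 10.2-fold, Mael by 1.76 ± 0.39 (0.0128) or 3.52-fold, and Mov10l1 by 1.23 ± 0.32 (0.0299) or 2.39-fold. Asz1 (1.51 ± 0.46, limma adjusted p = 0.0556) and Fkbp6 (1.77 ± 0.59, 0.0875) did not pass, and Piwil2 differed by 0.07 ± 0.38. Without any 1 of the 4 libraries compared the calls of Mael (limma adjusted p of 0.0735 to 0.0865) and Mov10l1 (0.110 to 0.173) were lost, and that of Tdrd5 held. Asz1 passed without replicate 1 or 2 of E9.5 (0.0232 and 0.0225) or the E7.25 male replicate 2 (0.0434), and Fkbp6 without the E7.25 female library (0.0274) or replicate 1 or 2 of E10.5 (0.0470 and 0.0465).

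Tdrd9 entered the tests only through its 2 female E15.5 libraries, which held its only values of at least 1 RPKM, so a high female value was built into its selection and its tests with those libraries support nothing. Of the other 9 genes, 3 were higher in E15.5 females than at E12.5 (Mael, Tdrd5 and Mov10l1) and 0 lower, where 8.6% of all tested genes were called higher and 9.84% lower. Mael rose by 2.88 ± 0.39 (limma adjusted p = 0.000204) or 7.75-fold, Tdrd5 by 2.11 ± 0.52 (0.0117) or 5.44-fold, and Mov10l1 by 1.47 ± 0.32 (0.00578) or 2.85-fold. Tdrd9 differed by 1.22 ± 0.26 on the log2 scale. Stk31 (1.07, limma adjusted p = 0.0960), Asz1 (1.11, 0.112) and Fkbp6 (1.53, 0.0918) did not pass. Fkbp6 passed without the E7.25 female library (0.0307). Tdrd5 no longer passed without E12.5 replicate 1 (1.94, limma adjusted p = 0.0818) or E15.5 female replicate 2 (2.04, 0.0667), nor Mov10l1 without E12.5 replicate 1 (1.37, 0.0524) or E15.5 female replicate 1 (1.28, 0.0542). In males the median log2 difference of the 10 genes was 1.16, against 0.00 over all tested genes. The female median, also 1.16, includes Tdrd9 and carries the limit given above. Both sexes were compared with the same E12.5 libraries.

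Between the sexes at E15.5 none of the 9 genes other than Tdrd9 passed, where 4.33% of all tested genes were higher in females and 5.35% higher in males. An unadjusted limma p under 0.05 was seen for 1 of them, Mael, with no share of all tested genes at that limit given here. The female libraries held 2.20-fold more Mael, at 131 and 172 RPKM against 69.7 and 67.7 RPKM, a log2 difference of 1.11 ± 0.39 (limma adjusted p = 0.0963). That p ranged from 0.00269 to 0.499 over the alternatives and passed with the E7.75 female library left out (0.0427), with a pseudocount of 5 (0.00269) and with male and female epiblast as separate groups (0.0467). Tdrd5 pointed the other way, 1.87-fold higher in the male mean with no overlap (-0.86 ± 0.52, limma adjusted p = 0.364), and passed only with a pseudocount of 5 (-0.73, 0.0149). Piwil4 differed by -1.22 ± 0.64 (limma adjusted p = 0.283) and Tdrd9, with the limit given above, by 0.59 ± 0.26 (0.182). The highest group mean was female for Piwil2, Stk31, Mov10l1, Mael and Tdrd9 and male for Asz1, Fkbp6, Tdrd1, Tdrd5 and Piwil4. Fkbp6 (-0.24 ± 0.59) and Stk31 (0.30 ± 0.42), the most abundant, had differences smaller than their SEs, and such values do not show that the sexes were alike.

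**Figure D4:**
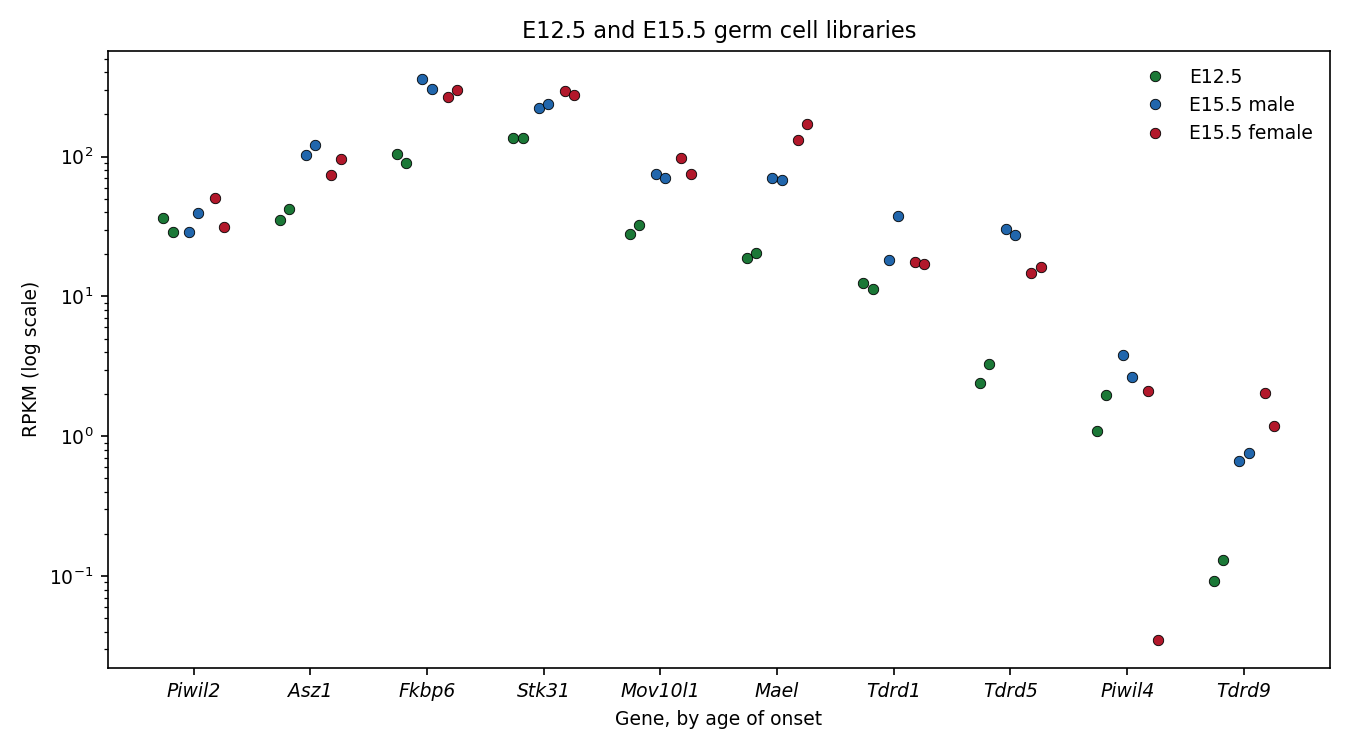
RPKM (log scale) of the 10 genes in the single libraries of E12.5 (green) and of male (blue) and female (red) E15.5 PGC, with the genes by age of onset. Mael was at 131 and 172 RPKM in females against 67.7 and 69.7 RPKM in males, and Tdrd5 at 14.7 and 16.2 RPKM against 27.7 and 30.2 RPKM.

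Averaged over the ages, 8 genes were called higher in PGC than in epiblast and 0 lower, where 32.1% of all tested genes were called higher and 26.4% lower. Among the 8, Piwil2 and Mov10l1 stayed under 1 RPKM in every epiblast library (at most 0.980 and 0.826 RPKM). Tdrd1 reached it in only 1 (1.72 RPKM). The filter therefore kept Piwil2, Mov10l1 and Tdrd1 through PGC libraries, so a high PGC value was built into their selection and their calls here support nothing. Over the 8 genes the log2 difference ran from 1.34 ± 0.26 for Tdrd5 (limma adjusted p = 0.000489) to 4.25 ± 0.21 for Stk31 (7.65e-10). With PGC and epiblast taken as 2 groups 6 of the 8 passed, without Mael (2.12, limma adjusted p = 0.115) and Tdrd5 (1.34, 0.152). This mean joins ages with and without expression: in the E9.5 libraries Piwil2, Fkbp6, Stk31, Mael and Tdrd1 had means under those of either epiblast day. Tdrd5 did not pass with PGC of E9.5 to E12.5 alone (0.15, limma adjusted p = 0.688). Piwil4 (0.65 ± 0.32, limma adjusted p = 0.0981) did not pass. Piwil4 passed without E9.5 replicate 2 (0.81, limma adjusted p = 0.0270) or E15.5 female replicate 2 (0.78, 0.0424), and without all 4 libraries of low depth (0.85, 0.0457). Tdrd9 and Piwil4 (at most 0.829 RPKM in epiblast) were likewise kept by the filter only through PGC libraries, and their tests here support nothing. Tdrd9 differed by 0.29 ± 0.13.

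The 8 genes that reached 5 RPKM had similar courses across the libraries. Pearson's r of log2(RPKM + 1) over the 18 libraries was 0.670 to 0.979 for the 28 pairs among these 8 (median 0.912). For the 45 pairs of all 10 genes it was 0.368 to 0.979 (median 0.800). Piwil4 was the least like the others (0.446 to 0.558 with those 8), followed by Tdrd9 (0.606 to 0.800). These values describe genes that share libraries, ages and depth, and carry no test. The 8 genes were set apart by their level in these same libraries, so their higher r than that of Piwil4 and Tdrd9 supports nothing.

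Over the 8 group means, the 10 of 11086 other genes closest to the mean profile of the pathway genes, by Pearson's r, were Fam9b (0.994), AABR07002250.2 (0.993), AABR07041078.1 (0.993), Hormad1 (0.991), Btbd18 (0.989), Asnsd1 (0.987), mageb1l1 (0.987), Gtsf1 (0.986), Timm8a2 (0.986) and Trim52 (0.986). Gtsf1 and Btbd18 belong to the piRNA pathway themselves, GTSF1 as a partner of PIWI proteins and BTBD18 as a nuclear factor for piRNA precursor transcription. HORMAD1 binds meiotic chromosome axes. Of single genes, Stk31 was closest to Dazl (0.997), an RNA-binding regulator of gonadal germ cells, and to Sohlh2 (0.993) and Kdm2b (0.992). Fkbp6 was closest to Tuba3b (0.991), Tex12 (0.990) and Dmrtc1c1 (0.989), and Mael to Ccdc172 (0.992), Taf7l (0.990) and Btrc (0.987). Piwil2 was closest to Znf750 (0.987), Rhox13 (0.987) and Tex19.2 (0.986), and Asz1 to Rhox13 (0.995). Pearson's r takes no account of level or size of change. Mean levels at E9.5 and E12.5 were 114 and 171 RPKM for Asnsd1, 18.5 and 90.1 RPKM for Kdm2b and 13.5 and 21.0 RPKM for Btrc. The rest of the 10 closest to the mean profile were at or under 0.230 RPKM at E9.5, and the other named matches of single genes at or under 1.10 RPKM.

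Other factors of the pathway rose over the same ages. Of 19 such genes 18 were in the table and 15 were tested, since Piwil1, Tdrd6 and Hsp90aa1 stayed near 0. From E9.5 to E12.5, where 11.3% of all tested genes were called higher, 9 of the 15 rose and 0 fell. Ddx4, the germ granule helicase also called Vasa, rose by 6.13 ± 0.51 (limma adjusted p = 1.93e-06) and Gpat2, a mitochondrial acyltransferase of the pathway, by 4.25 ± 0.57 (0.000107). Ddx4 had been present in epiblast, where it was at 10.9, 26.8 and 29.7 RPKM at E7.25, 3.98, 4.99 and 8.71 RPKM at E7.75 and 2.46 and 0.0419 RPKM at E9.5. It then read 9.18 and 7.68 RPKM at E10.5, 23.0 and 35.7 RPKM at E11.5, 139 and 126 RPKM at E12.5 and 319 to 387 RPKM at E15.5.

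The calls of these 15 genes at single steps stand beside the shares of all tested genes called higher and lower. These shares were 16.3% and 11.3% from E7.75 to E9.5, and 11.5% and 18.4% to E10.5. They were 3.59% and 3.61% to E11.5, and 4.12% and 3.09% to E12.5. From E12.5 to E15.5 they were 3.58% and 5.15% in males and 8.6% and 9.84% in females. Leaving out 1 library at a time changed the number of calls among the 15 genes. From E7.75 to E9.5, 1 rose and 1 fell (Henmt1, which methylates piRNA ends, by 1.89, and Ddx4), and neither passed without replicate 2 of E9.5 (1.53, limma adjusted p = 0.0654, and -0.93, 0.175). To E10.5, 1 rose (Ddx4 by 2.31) and 3 fell, a number that lay between 1 and 3 with a library left out. To E11.5, 3 rose (1 to 4 with a library left out), among them Gtsf1 by 2.70 ± 0.33 (limma adjusted p = 0.000556), and to E12.5, 3 rose (1 to 4), among them Ddx4 by 2.17, which did not pass without any 1 of the 4 libraries compared (limma adjusted p of 0.0525 to 0.150). From E12.5 to E15.5, 3 rose and 0 fell in males (0 to 4 higher with a library left out) and 5 rose and 1 fell in females (3 to 6 higher). Tdrd7, a Tudor gene already at 6.50 to 23.2 RPKM in epiblast, was at 1.51 to 2.61 RPKM at E10.5 and at 25.6 and 29.6 RPKM in E15.5 females.

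Gtsf1 was at 0.305 and 0 RPKM at E10.5, 6.89 and 5.94 RPKM at E11.5 and 8.61 and 9.22 RPKM at E12.5, which places it with the genes of E11.5 onset. Prmt5, the arginine methyltransferase that marks PIWI proteins for Tudor domains, was already at 162 to 189 RPKM in epiblast and at 81.7 to 186 RPKM in PGC. It was the 1 gene of the 15 called between the sexes at E15.5, at 81.7 and 94.7 RPKM in females against 120 and 126 RPKM in males (-0.48 ± 0.12, limma adjusted p = 0.0233). That call was lost without male replicate 1 (0.128), male replicate 2 (0.0782) or female replicate 2 (0.161).

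Of the effectors that act downstream of PIWIL4, 7 genes were listed, 5 were in the table and 4 were tested (Dnmt3a, Dnmt3b, Dnmt3l and Tex15). All 4 fell from E7.75 epiblast to E9.5 PGC, where 11.3% of all tested genes were called lower. Dnmt3l, the cofactor of de novo DNA methylation, was at 17.6 to 24.4 RPKM in epiblast and at or under 0.797 RPKM in every PGC library. At that step it fell by 3.95 ± 0.29 on the log2 scale (limma adjusted p = 3.90e-07). The fall of Tex15 (-1.04, limma adjusted p = 0.0265) did not pass without E9.5 replicate 1 (0.277) or the E7.75 female library (0.0993).

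Tex15, which links PIWIL4 to methylation, was higher again in later PGC. It was at 0.698 and 2.25 RPKM at E9.5, 4.21 and 4.40 RPKM at E10.5, 5.85 and 9.86 RPKM at E11.5, 40.9 and 32.6 RPKM at E12.5 and 43.5 to 59.4 RPKM at E15.5. From E9.5 to E12.5 it rose by 4.0 ± 0.35 (limma adjusted p = 3.21e-06). Dnmt3a, a de novo DNA methyltransferase, was at 15.6 and 17.9 RPKM at E12.5, 7.55 and 8.40 RPKM in E15.5 males and 0.464 and 2.35 RPKM in E15.5 females. Dnmt3a was called higher at E12.5 than at E11.5 (1.37) and E9.5 (1.36), where 4.12% and 11.3% of all tested genes were higher. It then fell by 3.0 ± 0.32 to E15.5 females (limma adjusted p = 2.61e-05), where 9.84% of all tested genes were lower. Between the sexes it differed by -2.02 ± 0.32 (0.00122), where 5.35% were lower in females. Fits of only the groups compared lost all these calls (limma adjusted p = 0.0792, 0.0794, 0.0713 and 0.187, in that order).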

How the data were processed

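Messenger RNA was measured in total RNA from 18 samples, amplified with the SMART-Seq v4 kit after PicoPure extraction, per the labels' protocols. The values deposited by the authors are RPKM, in 1 table with 1 column per library and 32545 rows. Tools listed in the submitters' processing notes, with no role, are TopHat2 2.1.0 and Cufflinks 2.2.1, besides cutadapt 1.14 and bcl2fastq 2.18.0.12; rn6 is the build. How strand and multi-mapping reads were handled, and with which annotation, is not given in the sources used here. RPKM divides by the mapped total, so a few abundant genes can shift the rest.

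Groups came from the sample titles. Values were taken as log2(RPKM + 1), with a pseudocount of 1, and genes with at least 1 RPKM in at least 2 libraries (14865) were tested. Limma 3.58.1 in R 4.3.3 was fitted with a variance trend to 8 groups with 10 residual degrees of freedom, for 10 comparisons. All libraries shared 1 estimate of the spread, since 2 libraries against 2 cannot give an exact two-sided permutation p below 0.333. Benjamini-Hochberg adjustment of p-values ran over all tested genes of a comparison, with a threshold of 0.05. Where a library was left out of a group of 2, the lone library was taken to vary like the other groups. The script was tested on simulated data. Relative depth came from the ratio most often seen between 2 libraries' values under 50 RPKM. Since no counts were available, no counting interval is given. Promoter sequences were taken from RefSeq, build GRCr8, by symbol, because 0 gene identifiers matched that reference. Plots used Python 3.11.15 and matplotlib 3.10.9.

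The 10 genes, the 26 other pathway genes and the tests were chosen with earlier results of these data known. The 10 genes are named throughout. Of the others, at most the 2 largest rises and falls per comparison, besides genes named for their levels or for losing a call, and of all genes those closest by correlation of group means with at least 5 RPKM in a group. Prmt5 between the sexes, Tdrd7 and Dnmt3l were singled out after their values were seen. The alternatives were pseudocounts of 0.1 and 5, no filter and a filter of 5 RPKM, quantile and median-ratio scaling, no variance trend, fits of only the groups compared, a replicate block, 10 groups with epiblast sexes apart, 2 groups, and each library left out. Leaving out all libraries of E10.5 and E11.5 was added after seeing the data. Expression of Tdrd15, Spocd1 and Dnmt3c is not analysed here.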

Additional observations from a re-analysis of the deposited data

How the results depend on the processing

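For the 34 passed results of the 10 genes, 981 alternative values were computed: 918 kept the direction and the call, 63 lost the call and 0 changed sign. Among the 34 are Tdrd9 in E15.5 females and Piwil2, Mov10l1 and Tdrd1 in all PGC versus epiblast, whose tests support nothing, as stated above. The counts for E15.5 females below include Tdrd9 where it passed. Those for all PGC versus epiblast include Piwil2, Mov10l1 and Tdrd1, and can include Piwil4 and Tdrd9 as well. With a pseudocount of 0.1, which weighs values near 0 more, the count of higher genes became 1 at E11.5 versus E10.5, 0 at E12.5 versus E11.5, 0 in E15.5 males and 2 in E15.5 females. The same setting called 1 gene lower at E9.5 versus E7.75 (Fkbp6, -3.01, limma adjusted p = 0.0103) and 1 lower at E10.5 versus E9.5 (Mael, -2.85, 0.0179). With a pseudocount of 5 it became 7 at E11.5 versus E10.5, 7 in E15.5 males, 7 in females, and 1 higher and 1 lower between the sexes (Mael and Tdrd5). Where a count of the 10 genes stands here or below without that of all tested genes under the same setting, it cannot be judged. With male and female epiblast as separate groups, 1 gene (Mael) was higher in females. Limma fits of only the groups compared have 2 residual degrees of freedom in most comparisons: they gave 0 genes higher at E10.5 versus E9.5, 0 at E11.5 versus E10.5 and 0 at E12.5 versus E11.5, where over all tested genes 0, 56 and 0 passed, against 4443, 1069 and 1072. That fit also moved the count over all tested genes from 40 to 9 between the epiblast days, from 4108 to 2204 at E9.5 versus E7.75, from 3449 to 1093 at E12.5 versus E9.5, from 1297 to 333 in E15.5 males, from 2741 to 1006 in E15.5 females and from 1439 to 0 between the sexes. Leaving out 1 library moved it by more than 1.5 times to 16 to 23 between the epiblast days (12 without all E10.5 and E11.5 libraries), 353 to 547 at E11.5, 251 to 486 at E12.5 versus E11.5, 2108 to 2202 at E12.5 versus E9.5, 525 to 648 in males, 1475 to 1695 in females and 672 to 782 between the sexes.

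Leaving out 1 library at a time, the number of the 10 genes called lower ranged from 0 to 1 between the epiblast days and from 0 to 1 at E9.5 versus E7.75. The number called higher ranged from 4 to 5 at E10.5 versus E9.5, 3 to 6 at E11.5 versus E10.5, 0 to 3 at E12.5 versus E11.5, 7 to 8 at E12.5 versus E9.5, 1 to 4 in E15.5 males, 2 to 5 in E15.5 females (counts for females include Tdrd9), 0 to 1 between the sexes, and 8 to 10 for all PGC versus epiblast, where 6 passed with PGC and epiblast as 2 groups. Quantile normalization moved the median of all tested genes at E10.5 versus E9.5 from -0.16 to 0.03 and the share of higher calls from 38.5% to 51.7%, and at E9.5 versus E7.75 that share from 59.0% to 48.3%; the calls of the 10 genes in these comparisons were the same. For the 57 passed results of the other pathway genes, 1652 alternative values were computed: 1495 kept direction and call, 156 lost the call and 1 changed sign, Tdrd12 over all PGC versus epiblast, at -0.20 with PGC of E9.5 to E12.5 only. Onset ages moved with the limit, and at 50% of the highest mean 9 genes had theirs at E15.5 and Piwil2 at E12.5. The replicate numbers did not pair the libraries: the correlation of deviations between same-numbered libraries exceeded 0.1 in 0 of 15 pairs (-0.13 to 0.06). With the replicate block, the number of higher genes was 9 for all PGC versus epiblast (Piwil4 0.75, limma adjusted p = 0.0383) and unchanged in the other comparisons. At their lower depth, 1 read weighs more in RPKM in the E10.5 and E11.5 libraries, which limits the precision of values near 1 RPKM there.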
